A study of Arabidopsis thaliana with 21 samples.

Results

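The genes described here are 105 transcription factor genes of Arabidopsis thaliana that were listed in mesophyll protoplasts but in no root table of the study. They are the genes of the protoplast tables of NLP7 and of NLP7 with KIN10 that carry a family entry in the transcription factor column and are absent from both root tables. NLP7 and NLP3 were left out by name, and 19 further transcription factor genes were left out because a root table listed them. The 105 genes are part of 2065 genes listed in protoplasts and of 2945 listed in the whole series. The study had 21 RNA sequencing libraries, 12 of roots and 9 of protoplasts, and the question for the protoplasts was what KIN10 does to the function of NLP7. Protoplasts, which are leaf cells without their wall, came from soil-grown Columbia plants aged 4 weeks, kept at 8 h of light and 16 h of dark. Groups of 3 libraries were transformed with GFP (the control), with NLP7-GFP, or with NLP7-GFP together with KIN10-Myc, and the labels call the 3 libraries biological replicates. One label field names Ler seedlings for these libraries as well, and the plant origin is given here as the genotype field has it. Expression was transient, and the promoter of the plasmids and the share of cells transformed are not stated in the labels.

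NLP7 is a transcription factor with an RWP-RK domain that moves to the nucleus when nitrate arrives and activates nitrate-responsive genes. KIN10 is the catalytic part of the SnRK1 kinase, which is active under low energy and represses growth. Transcription factors are grouped in families by their DNA-binding domain, and single members of a family can act in certain organs or cell types. SCR, a GRAS factor, specifies the endodermis of the root, and GL2, a homeodomain factor, acts in trichomes and in the hairless cells of the root epidermis, so both are known for tissues other than mesophyll.

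NLP proteins bind nitrate-responsive elements, and the 300 bases before the annotated start of each gene were searched on both strands for TGNCNCTT, for CTTNNNNNNNNNNAAG and for the joined form TGNCNCTTNNNNNNNNNNAAG, in which the former 2 overlap at CTT. TGNCNCTT was found in 11 of the 105 windows (10.5%), against 10.5% of 27443 windows of protein-coding genes and 13.6% of the listed protoplast genes. CTTNNNNNNNNNNAAG was found in 7 of 105 (6.67%), against 9.71% of all protein-coding and 10.2% of the listed genes. The joined form was in 1 window, that of the Trihelix gene AT2G35640, and in 56 of the 27443 windows (0.204%). The members' shares were close to or below those of all genes, except for the joined form, which rests on 1 gene. Of the members shown by sequence, GL2 and SCR are the marker genes of the set, CES is the bHLH gene with the largest fold change in the authors' deposited table for NLP7, MYB59 is the most abundant MYB gene, VRN1 is the most abundant B3 gene, and AT2G35640 holds the joined form. Capitals mark the matched letters, and MYB59 and SCR had none. All sequences are from the RefSeq TAIR10.1 assembly, whose gene starts and ends equal those of the deposited TAIR10 coordinates for 104 of the 105 genes, and each reads 5′ to 3′ on the strand of its gene. The windows are chr1:30036656-30036955 on the plus strand for GL2, chr1:8882101-8882400 on the minus strand for CES, chr3:6552056-6552355 on the minus strand for VRN1, chr2:14982535-14982834 on the plus strand for AT2G35640, chr3:20069687-20069986 on the plus strand for SCR and chr5:24083563-24083862 on the minus strand for MYB59.
GL2: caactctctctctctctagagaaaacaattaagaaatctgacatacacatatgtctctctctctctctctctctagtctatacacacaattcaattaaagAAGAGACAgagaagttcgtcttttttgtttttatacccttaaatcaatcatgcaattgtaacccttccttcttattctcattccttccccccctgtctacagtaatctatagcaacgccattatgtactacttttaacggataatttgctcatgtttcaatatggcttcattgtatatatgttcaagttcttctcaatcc
CES: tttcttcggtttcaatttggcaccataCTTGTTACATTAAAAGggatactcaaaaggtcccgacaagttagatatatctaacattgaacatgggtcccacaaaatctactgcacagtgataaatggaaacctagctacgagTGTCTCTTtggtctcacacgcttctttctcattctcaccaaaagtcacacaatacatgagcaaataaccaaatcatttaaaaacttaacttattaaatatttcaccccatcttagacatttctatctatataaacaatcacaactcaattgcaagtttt
VRN1: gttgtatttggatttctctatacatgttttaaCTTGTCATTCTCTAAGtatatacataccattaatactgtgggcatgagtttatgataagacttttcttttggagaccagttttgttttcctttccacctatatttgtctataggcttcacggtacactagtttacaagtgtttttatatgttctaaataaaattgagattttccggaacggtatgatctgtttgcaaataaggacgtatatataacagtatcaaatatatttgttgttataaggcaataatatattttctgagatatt
AT2G35640: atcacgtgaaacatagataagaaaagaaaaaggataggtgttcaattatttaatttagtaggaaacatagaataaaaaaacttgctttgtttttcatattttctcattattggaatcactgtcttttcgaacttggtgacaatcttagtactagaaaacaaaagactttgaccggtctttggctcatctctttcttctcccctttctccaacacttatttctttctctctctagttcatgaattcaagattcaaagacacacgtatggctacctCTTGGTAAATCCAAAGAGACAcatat
SCR: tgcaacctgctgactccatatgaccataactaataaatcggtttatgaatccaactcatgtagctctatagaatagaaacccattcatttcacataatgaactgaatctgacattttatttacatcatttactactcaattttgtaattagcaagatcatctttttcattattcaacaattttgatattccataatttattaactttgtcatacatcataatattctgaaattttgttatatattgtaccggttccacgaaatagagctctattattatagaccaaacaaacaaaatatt
MYB59: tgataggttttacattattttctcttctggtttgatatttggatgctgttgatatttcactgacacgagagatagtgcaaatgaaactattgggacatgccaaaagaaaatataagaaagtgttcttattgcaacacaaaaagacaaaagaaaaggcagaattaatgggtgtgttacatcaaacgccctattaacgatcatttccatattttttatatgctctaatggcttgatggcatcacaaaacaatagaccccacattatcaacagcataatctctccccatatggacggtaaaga

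In the AT2G35640 window, CTTNNNNNNNNNNAAG began 26 bases before the gene start and TGNCNCTT, on the opposite strand, 13 bases before it. The match in GL2 began 200 bases before the gene start. In CES the matches began 273 and 159 bases before it and did not overlap. AT2G35640 was at 0.3, 0.54 and 0.51 FPKM (a level defined below) with GFP, at 3.93, 3.47 and 3.46 with NLP7, and at 0.82, 0.92 and 1.83 with NLP7 and KIN10. Its 3 groups did not overlap, with the libraries of both proteins in between, and it fell with KIN10 (edgeR log2 fold change -1.64 ± 0.30 against NLP7, adjusted p = 1.04e-04). A match of letters describes the window and does not show that a protein binds there.

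The 9 libraries held 16186555 to 20428755 mapped fragments, and listed genes took 2.04 to 8.64% of them. Values are FPKM, the fragments per kilobase of transcript scaled to mapped fragments, so levels can be compared between genes. Of 8 mesophyll marker genes fixed from the labelled cell type, CAB1 and LHCB2.1 were listed, at a summed 396 to 449 FPKM with GFP, 1049 to 1137 with NLP7 and 417 to 556 with NLP7 and KIN10. None of 5 guard cell markers was listed. Of 8 vascular markers 7 were found in the reference, and SMXL5 alone was listed, at 0 to 0.22 FPKM. Only genes selected by the authors have values, so a marker that is not listed may still be expressed. The NLP7 transcript, which includes reads from the plasmid, was at 52.69, 53.68 and 43.23 FPKM with GFP, at 2261.07, 1535.82 and 1949.72 with NLP7, and at 280.17, 211.66 and 417.38 with NLP7 and KIN10. NLP7 transcript was thus 6.32 ± 1.44-fold lower (ratio of means ± SE, n = 3) when KIN10 was present (edgeR log2 fold change -2.66 ± 0.21, adjusted p = 3.64e-08). The dose of NLP7 transcript and the presence of KIN10 therefore moved together. Their parts in the differences below cannot be told apart in the groups used here, which do not include KIN10 alone. The same holds for fewer responding cells and less RNA per cell.

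Most of the 105 genes were higher with NLP7 than in control protoplasts. Per the authors' deposited table for NLP7, 89 of the 105 were listed as higher and 7 as lower than with GFP, while 89.4 and 6.73% of all listed genes were. In the authors' deposited table for NLP7 with KIN10, 28 were listed as higher and 4 as lower, where the shares of all listed genes were 19 and 3%. The 23 genes in both tables had the same direction in both, and both tables used the same GFP libraries. Because these listings chose the genes, the differences from GFP are given as descriptions without a test. The members' median log2 fold change among those listed as higher was 3.73 in the authors' deposited table for NLP7, and over all genes listed as higher it was 2.23. By the criterion of an at least 2-fold ratio of means with libraries that did not overlap, 91 of the 105 were higher and 6 lower with NLP7 (89 and 4.99% of all listed genes), and 29 were higher and 4 lower with NLP7 and KIN10 (20.2 and 3.44%). Summed over the 105 genes, the level was 346 to 367 FPKM with GFP, 1147 to 1364 with NLP7 and 439 to 542 with both. The authors' adjusted p was over 0.05 for 10 members in each deposited table.

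**Figure D1:**
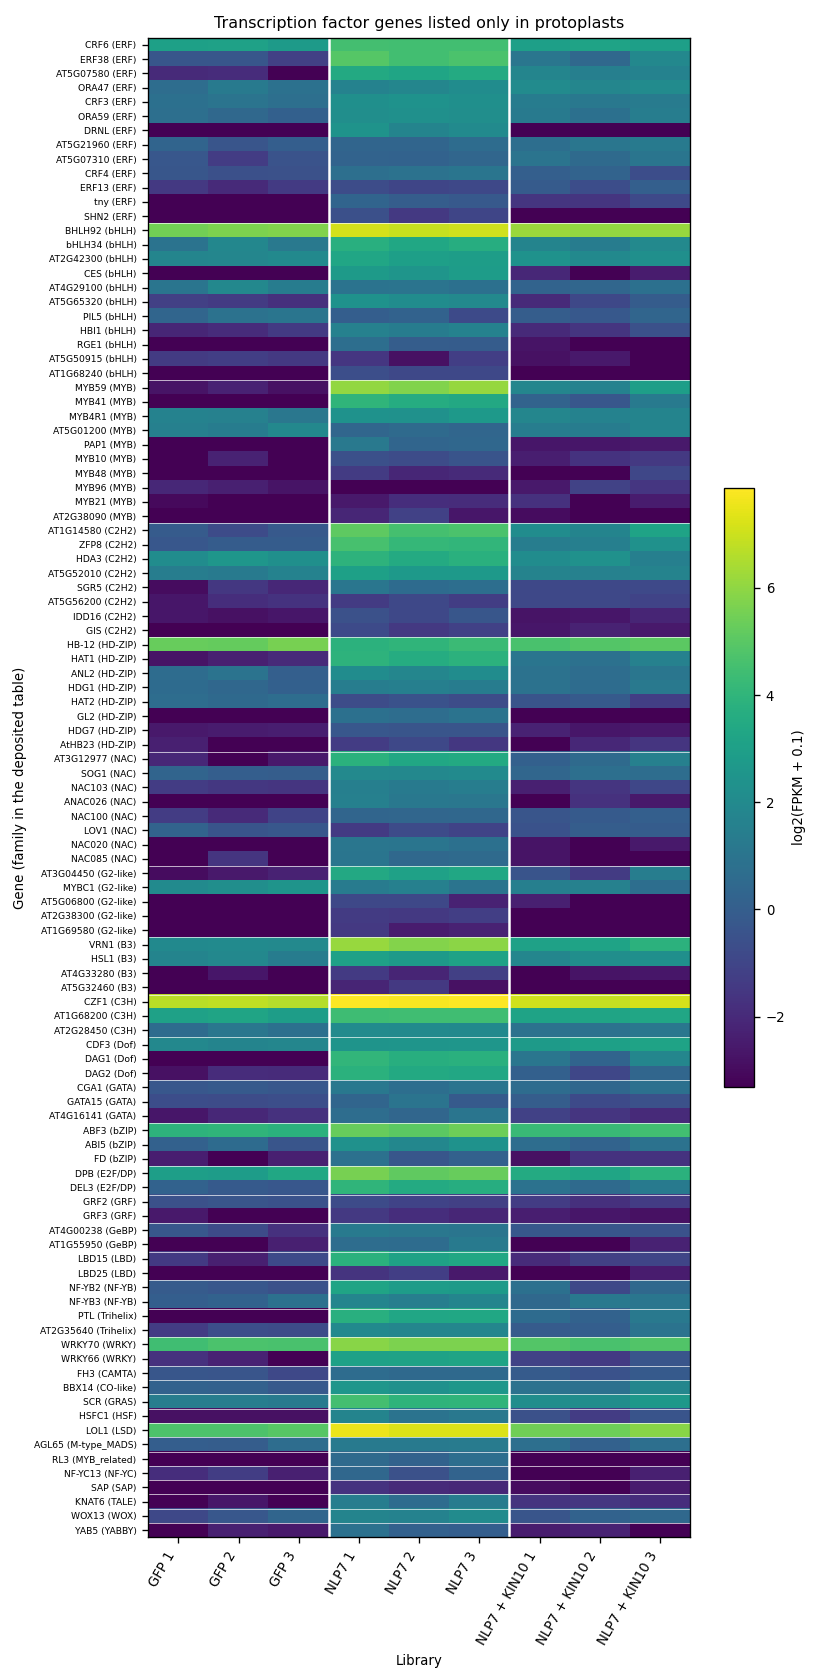
Level of each of the 105 genes (rows, ordered by family and then by level, with the family in brackets) in the 9 protoplast libraries (columns), as log2(FPKM + 0.1) in colour. All rows share the same colour scale. Most rows are brighter in the 3 NLP7 libraries than in the 3 GFP libraries. Most are darker in the 3 libraries with NLP7 and KIN10 than in the NLP7 libraries.

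Levels spanned a wide range. Over all 9 libraries, 44 genes had a mean under 1 FPKM, 49 lay between 1 and 10 FPKM, and 12 were at 10 FPKM or more. In all 3 GFP libraries 23 of the 105 genes had no read (21.9%, against 14.4% of all listed genes). Such a gene cannot be listed as lower than with GFP. The authors listed all 23 as higher with NLP7, and 292 of the 297 such genes among all listed. Of these 23, 8 also had no read in any of the 3 libraries with NLP7 and KIN10, against 66 of the 297. A count of 0 means not detected at this depth, with a floor set here at 3 counts over the 3 libraries of a group. Floors and intervals of this kind cover counting error only.

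SCR (AT3G54220, chromosome 3, 20069987 to 20072878, plus strand in TAIR10) was at 2.55, 2.58 and 2.38 FPKM with GFP, at 22.81, 15.54 and 16.03 with NLP7, and at 4.42, 4.41 and 6.22 with NLP7 and KIN10. All 3 groups were separate, with the KIN10 libraries between the other groups. The ratio of means was 7.24 ± 0.95 for NLP7 over GFP. SCR fell with KIN10 (edgeR log2 fold change -1.86 ± 0.20 against NLP7, adjusted p = 5.00e-07). Of 8 root radial and meristem factors in the list used here, SCR alone was listed in protoplasts. Members outside that list were not sorted by tissue, so other root factors may be among them.

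GL2 (AT1G79840, chromosome 1, 30036956 to 30041440, plus strand) had no read in any GFP library or in any library with NLP7 and KIN10, and was at 1.66, 1.49 and 1.82 FPKM with NLP7. The NLP7 libraries held 204 counts of GL2 in all. With the floor of 3 counts over the group, GL2 was at least 64.0-fold higher with NLP7 than with GFP, and at least 70.4-fold lower with KIN10 than with NLP7 alone (edgeR adjusted p = 1.84e-07). GL2 was listed and could be tested only through its NLP7 libraries, which that test used again, so its p-value is no independent support. Of 13 epidermis, trichome and root hair factors in the list used here GL2 alone was listed. The list is not complete, so GL2 is not shown to be the only member from such tissues.

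**Figure D2:**
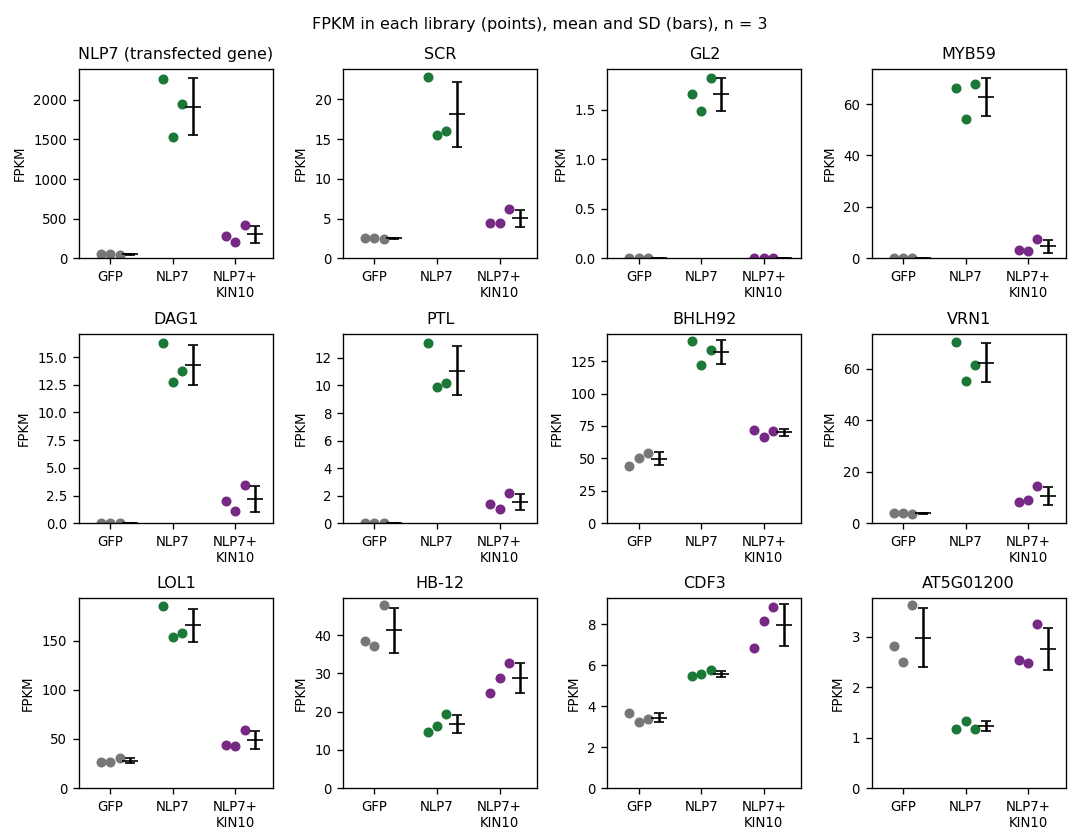
FPKM of the NLP7 transcript and of 11 of the genes in each protoplast library, with points for libraries, a horizontal line for the mean and bars for the SD (n = 3), each panel on its own linear axis from 0. In the first 9 panels the NLP7 libraries are highest, with GL2 at 0 in the other 6 libraries, and in the panels of HB-12 and AT5G01200 the NLP7 libraries are lowest.

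Genes without a read in GFP libraries included several of the strongest differences. DAG1, a Dof factor that represses seed germination, was at 0 in the 3 GFP libraries and at 16.31, 12.75 and 13.76 FPKM with NLP7. PTL, a Trihelix factor that limits growth between sepals, was likewise at 0 and then at 13.11, 9.87 and 10.2 FPKM. MYB41, a regulator of suberin and cuticle genes, was at 0 and then at 16.02, 12.08 and 10.67 FPKM. These 3 genes were at least 339-, 389- and 193-fold higher with NLP7 than with GFP. They were detected again with NLP7 and KIN10, where DAG1 stood at 2.02, 1.11 and 3.44 FPKM, PTL at 1.41, 1.06 and 2.18, and MYB41 at 1.1, 0.71 and 2.38. All 3 fell with KIN10, with edgeR log2 fold changes of -2.76 ± 0.31, -2.85 ± 0.25 and -3.26 ± 0.33.

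DRNL, an ERF factor of embryo and organ patterning that is used in shoot regeneration, behaved like GL2. It was at 5.22, 3.24 and 4.03 FPKM with NLP7 and at 0 in the 6 other libraries. It was at least 53.7-fold higher with NLP7 than with GFP and at least 59.2-fold lower with KIN10 (edgeR adjusted p = 4.45e-07). CES, a bHLH factor of brassinosteroid signalling, was at 0 with GFP, at 6.67, 5.65 and 7.25 FPKM with NLP7, and at 0.14, 0 and 0.08 with NLP7 and KIN10. ANAC026, the vessel factor VND5, was at 0 with GFP, at 2.83, 2.13 and 2.07 FPKM with NLP7, and at 0, 0.2 and 0.07 with both. NAC020 was at 0 with GFP, at 2.03, 1.96 and 1.68 FPKM with NLP7, and at 0.05, 0 and 0.07 with both. In each of these genes the NLP7 libraries stood far above all 6 others, and the 2 sets did not overlap. DRNL, CES, ANAC026 and NAC020 all passed the edgeR test against NLP7, the latter 3 with adjusted p of 5.58e-08, 1.19e-06 and 8.65e-07. Like GL2, these genes were listed and could be tested only through their NLP7 libraries, so the p-values are no independent support.

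Several of the most abundant members were already present in control protoplasts and differed from GFP by smaller ratios. CZF1, a CCCH zinc finger gene of salt stress, was at 106.15, 111.34 and 98.24 FPKM with GFP, at 234.17, 215.73 and 230.02 with NLP7, and at 131.71, 119.68 and 140.23 with both. Its 3 groups did not overlap, and NLP7 was 2.15 ± 0.09-fold above GFP. BHLH92, a bHLH gene of osmotic stress, was at 44.46, 50.31 and 54.5 FPKM with GFP, at 140.37, 121.85 and 133.71 with NLP7, and at 72.18, 66.81 and 70.92 with both. WRKY70, which balances salicylate and jasmonate defence, was at 21.75, 25.94 and 25.12, at 58.23, 51.28 and 50.42, and at 29.72, 25.01 and 28.51 FPKM in the same order. WRKY70 with both proteins overlapped its GFP libraries, while BHLH92 did not. CZF1, BHLH92 and WRKY70 fell with KIN10 (edgeR log2 fold changes -0.79 ± 0.12, -0.92 ± 0.14 and -0.94 ± 0.15), but relative to the listed genes (TMM scaling) their changes were 0.69, 0.57 and 0.54.

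LOL1, a zinc finger gene that promotes cell death, was at 26.83, 26.42 and 30.66 FPKM with GFP, at 184.89, 153.49 and 157.58 with NLP7, and at 43.65, 42.54 and 58.94 with both. VRN1, a B3 factor that keeps the floral repressor FLC silent after cold, was at 3.86, 3.96 and 3.74, at 70.37, 55.31 and 61.58, and at 8.38, 8.83 and 14.49 FPKM. MYB59, a MYB factor known to regulate root potassium and nitrate transport, was at 0.05, 0.11 and 0.04, at 66.33, 54.17 and 67.7, and at 3.38, 3.02 and 7.64 FPKM. The groups of all 3 genes were separate, with the libraries of both proteins between the others. NLP7 over GFP was 5.91 ± 0.45 for LOL1, 16.2 ± 1.16 for VRN1 and 941 ± 315 for MYB59, whose GFP level rests on 4 counts. All 3 fell with KIN10, with edgeR log2 fold changes of -1.79 ± 0.16, -2.57 ± 0.20 and -3.75 ± 0.28 (adjusted p = 9.11e-08, 3.71e-08 and 2.62e-08).

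DPB, a dimerization partner of E2F cell cycle factors, had means of 8.28 ± 1.47, 40.8 ± 6.75 and 11.5 ± 2.21 FPKM (SD, n = 3) with GFP, NLP7 and both. ABF3, a bZIP factor of abscisic acid response, had means of 15.1 ± 0.77, 38.0 ± 4.30 and 20.3 ± 1.87 FPKM. AT1G68200, a CCCH zinc finger gene, had means of 8.32 ± 0.89, 21.4 ± 0.45 and 9.36 ± 0.40 FPKM. In each, the NLP7 libraries lay above all others. They fell with KIN10, with edgeR log2 fold changes of -1.83 ± 0.19, -0.90 ± 0.15 and -1.21 ± 0.15, while TMM scaling gave -0.35, 0.58 and 0.27.

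Most of these genes were lower with NLP7 and KIN10 than with NLP7 alone. In edgeR, 85 of the 105 passed the filter on low counts and 20 did not. Of the 85, 70 were called lower (82.4%, where 86.4% of the 1722 listed genes tested were lower), 5 were called higher (3.83% of all tested) and 10 were not called. The members' shares in both directions were near those of all listed genes. Their median log2 fold change was -1.79 (quartiles -3.20 and -0.89), against -1.47 for all genes tested. All 70 that were lower had been listed as higher with NLP7, as had 1481 of the 1488 called lower over all listed genes. Of the 89 members listed as higher, 72 were tested. The listing used the same NLP7 libraries, and the NLP7 transcript itself was lower, as given above. By the ratio criterion, 72 of 105 were lower and 3 higher (71.5 and 1.11% of all listed genes).

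These counts depend on the scaling, because only genes selected by the authors have values. The library sizes used here are the mapped fragments. When sizes were scaled over the listed genes themselves, the median of all genes moved by 1.48 on the log2 scale with TMM and by 1.14 with DESeq2. The split of the 85 members tested was then 39 lower and 28 higher with TMM (45.9 and 32.9%, against 32.2 and 28.7% of all genes tested). With DESeq2, 40 of 105 were lower and 23 higher (38.1 and 21.9%, against 29.9 and 15.5% of all genes tested). The log2 fold change with TMM was -0.37 for SCR, -0.32 for LOL1, -1.10 for VRN1 and -2.30 for MYB59, and all 4 were still called lower. Differences under those scalings are relative to the median listed gene.

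**Figure D3:**
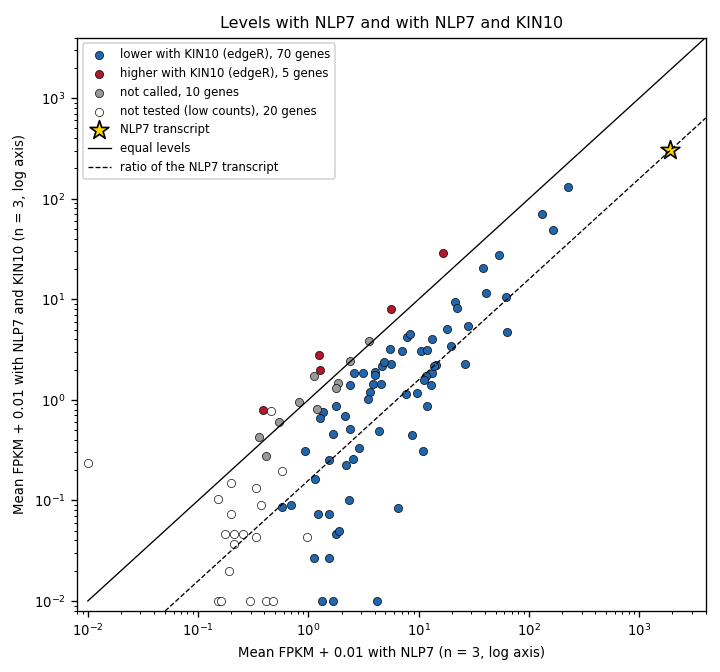
Mean FPKM + 0.01 with NLP7 (x, log axis) against NLP7 and KIN10 (y, log axis) for the 105 genes, n = 3 libraries each, coloured by the edgeR call, with the NLP7 transcript as a star. Most points lie below the line of equal levels, the dashed line marks the ratio of the NLP7 transcript (log2 fold change -2.66, where the median of the tested members was -1.79), and the 5 genes called higher lie above the line of equal levels.

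A gene's rise with NLP7 can be set as 100%, and the part of it that was kept with KIN10 then read as a percentage. Over the 89 members listed as higher, the median kept was 11.3% (quartiles 4.13 and 20.7%), against 10.8% over all genes listed as higher. The NLP7 transcript kept 13.6%. The 17 transcription factor genes listed as higher that a root table also listed kept a median of 17.0%. SCR kept 16.1%, VRN1 11.5%, MYB59 7.36% and CES 1.12%, and GL2 and DRNL kept 0%.

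CGA1, NAC100, MYB48 and MYB21, singled out after their values were seen, were the 4 members that kept over 50%. Over all 1846 genes listed as higher with NLP7, 59 kept over 50%. CGA1 (also GNL), a GATA factor of chloroplast development and nitrogen response, was at 0.72, 0.81 and 0.72 FPKM with GFP, at 2.13, 1.56 and 1.85 with NLP7, and at 1.45, 1.22 and 1.68 with both. Its libraries with both proteins overlapped those of NLP7, and the difference was not called (edgeR log2 fold change -0.36 ± 0.24, adjusted p = 0.160; 1.13 with TMM). It kept 63.8% and NAC100 58.0%. MYB48 and MYB21, with 10 and 15 counts over the NLP7 libraries, were not tested. Also after their values were seen, HDA3, NAC103, NAC085 and NF-YC13 were the 4 of the 89 members listed as higher with NLP7 whose mean with KIN10 was below that with GFP. Over all 1846 genes listed as higher, 262 were below GFP in this way. NAC103 had means of 0.26 FPKM with GFP and 0.25 with both. NAC085 and NF-YC13 had 3 and 6 counts with GFP and 1 each with both. HDA3, a plant-specific histone deacetylase, was at 4.28, 5.84 and 4.67 FPKM with GFP, at 14.79, 11.23 and 13.74 with NLP7, and at 4.24, 5.03 and 2.75 with both, so its last group overlapped GFP.

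The 10 largest falls by fitted fold were in GL2, DRNL, RL3, CES, NAC085, RGE1, AT1G55950, NAC020, ANAC026 and LBD15, of which 9 had at most 7 counts in the KIN10 libraries. LBD15 had 15 counts there. It was at 0.27, 0.1 and 0.48 FPKM with GFP, at 14.3, 8.52 and 10.22 with NLP7, and at 0.16, 0.33 and 0.41 with both, so the latter overlapped GFP. The fall of LBD15 was 4.71 ± 0.36 on the log2 scale (edgeR adjusted p = 2.79e-08). RL3, a RADIALIS-like gene, was at 1.34, 1.05 and 1.54 FPKM with NLP7 and at 0 elsewhere, which is at least 13.5-fold lower with KIN10. RGE1, the endosperm factor ZHOUPI, was at 1.56, 0.89 and 0.87 FPKM with NLP7 and had 1 count with both. NAC085 was at 1.94, 1.27 and 1.35 FPKM with NLP7 and had 3 counts with GFP and 1 with both. AT1G55950, a GeBP gene, was at 1.5, 1.44 and 2.35 FPKM with NLP7 and had 1 count in each of the other groups. The fitted folds of genes this low depend on the fit and are no bounds. All 10 were listed and could be tested only through their NLP7 libraries, which the test used again.

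The 5 genes called higher with KIN10 fell into 2 kinds. HB-12, AT5G01200 and LOV1 had been listed as lower with NLP7 than with GFP, and with KIN10 they were nearer to GFP. For LOV1 the authors' deposited DESeq2 adjusted p with NLP7 was 0.0573. HB-12, an HD-ZIP factor induced by drought and abscisic acid, was at 38.52, 37.2 and 47.89 FPKM with GFP, at 14.68, 16.11 and 19.43 with NLP7, and at 24.92, 28.86 and 32.79 with both. Its 3 groups did not overlap, and it rose by 0.78 ± 0.18 on the log2 scale (edgeR adjusted p = 6.86e-04). AT5G01200, a MYB gene, was at 2.81, 2.51 and 3.64, at 1.18, 1.34 and 1.18, and at 2.55, 2.48 and 3.25 FPKM. With both proteins it overlapped GFP and not NLP7, and it rose by 1.15 ± 0.25 (edgeR adjusted p = 4.93e-04). LOV1, a NAC factor of flowering time and cold response, was at 1.07, 0.65 and 0.72, at 0.27, 0.49 and 0.38, and at 0.6, 0.88 and 0.86 FPKM. It rose by 1.00 ± 0.35 (edgeR adjusted p = 0.0134), but without the first NLP7 library the adjusted p was 0.0675.

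CDF3 and AT5G21960 had not been listed with NLP7 alone. CDF3, a cycling Dof factor of flowering time and stress tolerance, was at 3.68, 3.25 and 3.37 FPKM with GFP, at 5.47, 5.56 and 5.76 with NLP7, and at 6.86, 8.18 and 8.86 with both. It rose with KIN10 by 0.51 ± 0.16 on the log2 scale (edgeR adjusted p = 0.00870), and its 3 groups did not overlap. AT5G21960, an ERF gene, was at 1.12, 0.68 and 0.91, at 1.17, 1.14 and 1.46, and at 1.57, 2.02 and 2.35 FPKM. It rose by 0.64 ± 0.26 (edgeR adjusted p = 0.0295), and the adjusted p was 0.0814, 0.0809, 0.0570 and 0.0995 without NLP7 library 1, NLP7 library 2, or library 2 or 3 of the pair of proteins. Without the first NLP7 library 3 members were called higher in place of 5.

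The table of NLP7 with KIN10 alone held 9 members, 6 listed as higher and 3 as lower. Of all 2065 listed genes 80 were in that table alone, 50 as higher and 30 as lower. The 6 higher were CDF3, AT5G21960, ORA47, AT5G07310, ERF13 and AT5G56200, of which 4 are ERF genes. The authors' deposited DESeq2 adjusted p was over 0.05 for ERF13 (0.184) and AT5G56200 (0.245). ORA47, an activator of jasmonate synthesis genes, was at 1.51, 2.29 and 1.72 FPKM with GFP, at 3.03, 3.37 and 4.25 with NLP7, and at 4.06, 3.4 and 4.08 with both. Its levels with NLP7 and with both overlapped, and no difference was called (edgeR log2 fold change 0.11 ± 0.22, adjusted p = 0.638). AT5G07310, known as ERF115, a factor of wound-induced stem cell division in roots, was at 0.72, 0.3 and 0.62, at 1.07, 1.04 and 1.2, and at 1.9, 1.36 and 1.93 FPKM. Its groups did not overlap, and the edgeR adjusted p against NLP7 was 0.0584, with 0.0489 when the GFP libraries were left out of the fit and 0.0464 and 0.0357 without GFP library 2 or library 2 of both proteins. ERF13 had 10, 21 and 36 counts in the 3 groups and was not tested, and AT5G56200, a C2H2 gene, was not called (adjusted p = 0.474).

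The 3 lower in that table alone were GRF2, AT4G29100 and AT5G50915. GRF2, a growth-regulating factor of leaf expansion, was at 0.59, 0.67 and 0.6 FPKM with GFP, at 0.49, 0.38 and 0.34 with NLP7, and at 0.3, 0.19 and 0.3 with both. AT4G29100, a bHLH gene, was at 1.94, 3.59 and 2.49, at 1.83, 1.87 and 1.64, and at 1.07, 1.2 and 1.67 FPKM. Libraries with both proteins lay below the GFP libraries in each of these genes, and against NLP7 edgeR called neither (log2 fold changes -0.63 ± 0.35 and -0.43 ± 0.27, which TMM scaling turned to 0.85 and 1.05). AT5G50915, another bHLH gene, had 20, 15 and 3 counts in the 3 groups. Without library 3 of both proteins AT4G29100 passed (adjusted p = 0.0376), and GRF2 passed in limma on log2(FPKM + 0.1), with an adjusted p of 0.0401.

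The 7 members listed as lower with NLP7 were HB-12, AT5G01200, LOV1, HAT2, MYBC1, PIL5 and MYB96. HAT2, an auxin-induced HD-ZIP factor, was at 1.51, 1.33 and 1.5 FPKM with GFP, at 0.5, 0.6 and 0.5 with NLP7, and at 0.64, 0.81 and 0.32 with both, and it was listed as lower in both tables. MYBC1, a G2-like factor of freezing tolerance, was at 4, 4.58 and 5.48, at 2.42, 2.83 and 1.9, and at 2.71, 2.96 and 1.56 FPKM. PIL5, also PIF1, which represses light-dependent germination, was at 1.17, 1.77 and 1.92, at 0.93, 1.03 and 0.47, and at 0.9, 0.75 and 1.15 FPKM. In these 3 genes both groups with NLP7 lay below the GFP libraries and overlapped each other. None of the 3 was called between them (edgeR log2 fold changes 0.18 ± 0.36, 0.03 ± 0.27 and 0.22 ± 0.32), and their sign changed when single libraries were left out. MYB96, a factor of wax synthesis and drought response, had 7 counts with GFP, 0 with NLP7 and 18 with both, and was not tested.

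The tf column put the 105 genes in 31 families, of which 12 had 1 member. ERF was the largest family with 13 genes, and 11 of them were tested. CRF6, a cytokinin response factor, was the most abundant ERF, at 8.03, 8.33 and 6.73 FPKM with GFP, at 22.61, 22.53 and 21.96 with NLP7, and at 7.8, 8.87 and 7.91 with both. With both proteins CRF6 overlapped GFP, and it fell against NLP7 by 1.45 ± 0.16 on the log2 scale (edgeR adjusted p = 7.11e-07), where TMM scaling gave 0.04. In all, 8 ERF genes were called lower and 1 higher, with a family median of -1.09. ERF genes were also 4 of the 9 members found only in the table of both proteins.

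The bHLH family had 11 genes, of which 7 of 9 tested were lower and none higher, with a median of -1.93, and BHLH92 and CES have been given above. Of 10 MYB genes 5 were tested, and 4 were lower and 1, AT5G01200, higher, with a median of -3.26. Of 8 NAC genes all were tested, and 6 were lower and 1, LOV1, higher, with a median of -3.09. AT3G12977, the most abundant NAC gene, was at 0.14, 0 and 0.07 FPKM with GFP, at 13.98, 10.12 and 11.07 with NLP7, and at 0.99, 1.35 and 2.82 with both. It fell by 2.81 ± 0.30 on the log2 scale (edgeR adjusted p = 5.73e-07). Groups of AT3G12977 did not overlap.

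Of 8 C2H2 zinc finger genes 7 were tested and 6 were lower, with a median of -1.81. AT1G14580 led them, at 0.83, 0.49 and 0.78 FPKM with GFP, at 33.59, 23.96 and 25.9 with NLP7, and at 4.2, 3.19 and 8.79 with both. Its 3 groups were separate, and NLP7 was 39.7 ± 7.34-fold above GFP. Of 8 HD-ZIP genes 7 were tested, with 5 lower and 1, HB-12, higher and a median of -1.20, and this family held GL2. Of 5 G2-like genes 2 were tested, and AT3G04450 fell by 3.20 ± 0.42 on the log2 scale (edgeR adjusted p = 4.46e-06) from 10.74, 8.42 and 9.97 to 0.64, 0.29 and 2.54 FPKM. Of 4 B3 genes, VRN1 and 1 other were tested and lower, while AT5G32460 rested on 10 counts with NLP7 and 0 elsewhere. Differences between families were not tested, and the family medians of the low genes rest on the few that passed the filter.

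**Figure D4:**
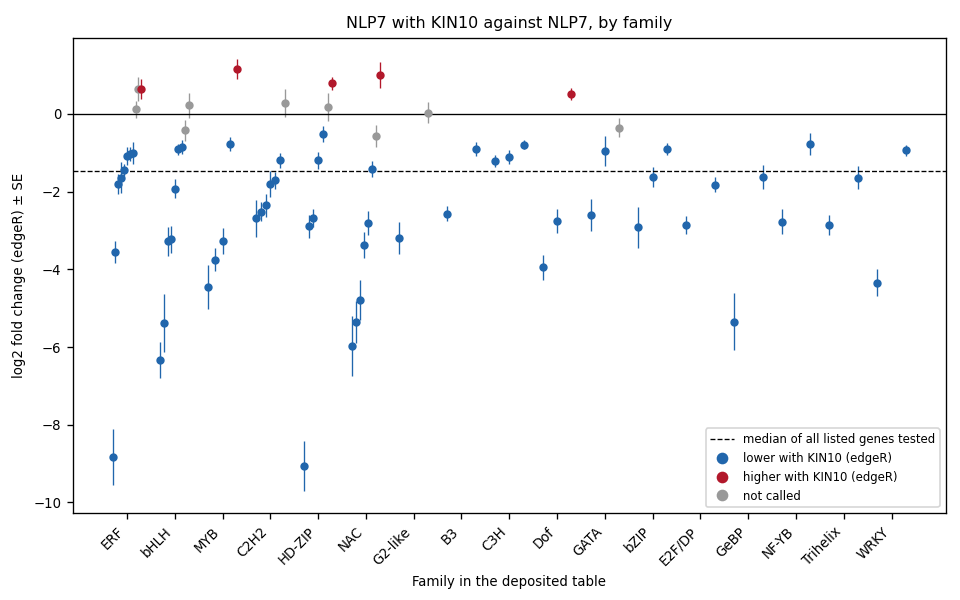
Fitted edgeR log2 fold change of NLP7 with KIN10 against NLP7 (y, ± SE) for tested members, by family (x, families with at least 2 tested members, 1 point a gene), with the median of all 1722 genes tested as a dashed line. Families with fewer tested members, among them those of RL3 and LBD15, are not drawn. The 2 lowest points, near -9, are DRNL and GL2, which had no read with KIN10, so that their fitted values are no bounds, and the 5 genes called higher lie in 5 families.

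Of 15 abscisic acid and drought factors in the list used here, 4 were listed in protoplasts and all 4 were members. ABF3 and ABI5 were higher with NLP7 in the authors' deposited table, and HB-12 and MYB96 lower. ABI5, a bZIP factor of seed dormancy, had means of 1.04 ± 0.37, 4.55 ± 0.91 and 1.44 ± 0.35 FPKM (SD, n = 3) with GFP, NLP7 and both. It fell with KIN10 by 1.63 ± 0.26 on the log2 scale (edgeR adjusted p = 3.48e-05), and under DESeq2 and TMM scaling the adjusted p was 0.243 and 0.560.

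Of 26 nitrogen response factors 7 were listed in protoplasts, of which 4 were also in root tables, and CRF4 and CGA1 were members. All 7 were listed as higher with NLP7, and edgeR called 6 of them lower with KIN10, CGA1 being the exception, where 89.4% of all listed genes were listed as higher and 86.4% of those tested were lower. CRF4, a cytokinin response factor that acts early in the nitrate response, was at 0.69, 0.57 and 0.58 FPKM with GFP, at 1.6, 1.75 and 1.91 with NLP7, and at 0.96, 1.08 and 0.52 with both. With both proteins CRF4 overlapped GFP, and it fell by 1.01 ± 0.28 on the log2 scale (edgeR adjusted p = 0.00340), where TMM scaling gave 0.49.

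Of 16 heat shock factors HSFC1 was a member, at means of 0.04, 2.39 ± 0.72 and 0.51 ± 0.18 FPKM in the 3 groups, with 3 counts in all with GFP. HSFC1 fell with KIN10 by 2.25 ± 0.32 on the log2 scale (edgeR adjusted p = 8.02e-06). Of 19 wound and regeneration factors DRNL and AT5G07310 were members, and of 19 defence WRKY factors WRKY70 was. Of 16 auxin and cytokinin response factors CRF6 was a member. Of 11 senescence, 18 clock and light, 15 flower and 9 SnRK1-linked bZIP factors on the lists none was a member. The lists are not complete, and some members with such roles, as given above, stand outside them. Among these are PIL5 for light, VRN1, LOV1 and CDF3 for flowering, HAT2 for auxin and CRF4 for cytokinin. Of the listed names, 23 nitrogen, 15 heat shock, 15 wound, 9 senescence and 7 bZIP names were found in the reference.

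The libraries of a group differed in order. Among the 89 members listed as higher with NLP7, the first NLP7 library was the highest in 54, the second in 9 and the third in 25, and the second was the lowest in 55. Over all 1846 genes listed as higher with NLP7 these numbers were 1229, 184, 409 and 1218, and the order was the same there. The NLP7 transcript was also highest in the first and lowest in the second. With both proteins, the third library was highest in 51 of the 81 members that had reads there, as it was for the NLP7 transcript and for 1117 of 1770 such genes among all listed. Whether the transcript of NLP7 sets the order was not tested.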

How the data were processed

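RNA sequencing of 9 protoplast libraries was used, 3 in each of 3 groups taken from the labels. Per the submitters' processing notes, HISAT and Bowtie2 were used with the TAIR10 genome. Their versions, the strand setting and the way of counting are not stated there. Per the file headers, the authors deposited FPKM, TPM and expected counts per library, and a log2 fold change with a p-value and adjusted p-value per comparison, for selected genes only. The expected counts were not whole for 2.57% of genes (0% of the members) and were rounded. A further 18 deposited columns, of protoplasts with KIN10 alone that are outside the sample list, were not used. The symbol, family and coordinates are the deposited ones, and NLP3 was found by locus.

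Library sizes were recovered from expected counts, FPKM and RefSeq lengths of genes with 1 transcript, at least 500 bases and at least 200 counts. NLP7 with KIN10 was tested against NLP7 with edgeR 4.0.16 (R 4.3.3) quasi-likelihood fits on all 3 groups, with filterByExpr, no further scaling, and Benjamini-Hochberg adjustment over 1722 tested genes with a threshold of 0.05. Folds are ratios of mean FPKM (n = 3, SE from the SDs), with a group at 0 set to 3 counts over the group. Alternatives used DESeq2 1.42.0, TMM, limma 3.58.1, TPM, no filter, a replicate block and 9 fits that each leave out 1 library. The edgeR procedure was tested on simulated data. Pairs of libraries in a group had a chi-square of 3.28 to 12.8 per degree of freedom, so none was a copy. Nothing in the labels gives separate plants for the replicates beyond the word biological, and p-values measure the spread between these libraries.

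The members and the 12 gene lists were chosen with earlier results of these data known. Named members are SCR and GL2, the 10 largest called folds in each direction, the 10 most abundant, the most abundant and most different in each of the 8 largest families, those listed as lower or only with KIN10 (up to 10), the 8 highest with no read in GFP, and those on the lists. Genes outside this rule are named where the text says so or for their upstream letters.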

Additional observations from a re-analysis of the deposited data

How the results depend on the processing

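The call of 70 members lower and 5 higher with KIN10 changed most with the scaling. DESeq2 called 40 lower and 23 higher, and TMM 39 and 28, while over all tested genes 1488 lower and 66 higher became 618 and 319 with DESeq2 and 554 and 494 with TMM. The medians of all genes moved by construction, since both scale over selected genes. With limma on log2(FPKM + 1), 8 members were higher. Leaving out 1 library gave 69 to 72 members lower, 3 to 6 higher, and 1435 to 1556 lower and 49 to 69 higher over all genes. The replicate block gave 72 lower and 5 higher (1543 and 65 over all genes). Deviations of same-numbered libraries from their group means correlated at -0.05 to 0.14, so the numbers are not shown to pair the libraries.

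Of the named members, those that changed sign with DESeq2 were AT1G68200 (0.064), CZF1 (0.48), WRKY70 (0.33), CGA1 (0.92), CRF4 (0.28), AT4G29100 (0.84), ABF3 (0.37), GRF2 (0.65) and BHLH92 (0.36). With TMM they were AT1G68200 (0.27), CZF1 (0.69), WRKY70 (0.54), CRF6 (0.044), CGA1 (1.13), CRF4 (0.49), AT4G29100 (1.05), ABF3 (0.58), GRF2 (0.85) and BHLH92 (0.57). MYBC1 came to -0.0048 with limma on log2(FPKM + 1) and -0.016 on log2(FPKM + 0.1). Leaving out 1 library gave MYBC1 -0.14 to 0.25, PIL5 -0.063 to 0.41 and HAT2 -0.10 to 0.44, with negative values without NLP7 library 3 (MYBC1, PIL5) or library 1 (MYBC1) or 2 (MYBC1, HAT2) of both proteins.

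The counts by ratio without overlap rest partly on low genes, and shares of all listed genes are in brackets. Folds of mean FPKM + 1 gave 59 members higher (56.2%, all genes 49.6%) and 1 lower (0.952 and 1.21%) for NLP7 over GFP. They gave 13 higher (12.4 and 8.09%) and 0 lower (0 and 0.63%) for both proteins over GFP, and 0 higher (0 and 0.291%) and 44 lower (41.9 and 38.6%) for both over NLP7. Of the 61 members with a mean of at least 1 FPKM, 53 were higher (86.9 and 89.8%) and 3 lower (4.92 and 4.62%) for NLP7 over GFP. For both over GFP, 22 were higher (36.1 and 24.9%) and 1 lower (1.64 and 2.81%). For both over NLP7, 1 was higher (1.64 and 0.743%) and 41 lower (67.2 and 71.8%). Leaving out libraries gave 88 to 92 and 4 to 6, 25 to 35 and 3 to 5, and 2 to 3 and 70 to 73 in the same order, and TPM kept all counts within 1.5 times. Depth limits the 20 members too low to test.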
